A study of Mus musculus with 123 samples.

Results

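Injured sensory neurons send signals to the cells around them, and several of those signals are secreted cytokines and chemokines. Described here are 9 genes that encode such signals in neurons, chosen by symbol: Csf1, Il34, Ccl2, Ccl7, Ccl21a, Cx3cl1, Cxcl12, Tgfb1 and Lif. All 9 were among the 24134 genes of the expression tables. Neurons were taken from dorsal root ganglia (DRG) of 2-month-old mice after sciatic nerve transection (SNT) of 1 side, and the contralateral ganglia of the same animals served as the control side. At day 3 the mice were F1 offspring of CAST/Eij males and C57BL/6 females and L5 ganglia were used. The study's text describes such F1 mice as female. Kept at day 3 after the authors removed 11 outliers were 41 SNT-side and 18 control-side single neurons, beside 3 pooled libraries per side. At day 7 the mice were C57BL/6 of both sexes and L3 to L5 ganglia were used, with 33 SNT-side neurons (16 female, 17 male) and 14 control-side neurons (7 female, 7 male). The day-3 samples carry no sex label. The study's text names both kinds of mice without assigning them to a day. It gives L3 to L5 ganglia for both days and elsewhere L5.

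CSF1 and IL-34 are the ligands of the receptor CSF1R, through which macrophages and microglia survive and divide. CCL2 and CCL7 are chemokines that recruit monocytes through CCR2, CCL21 acts on CCR7, the membrane-bound chemokine CX3CL1 (fractalkine) on CX3CR1, and CXCL12 on CXCR4. TGF-beta 1 acts on the receptor pair TGFBR1 and TGFBR2, and LIF, a cytokine of the interleukin 6 family, on LIFR with its partner gp130, encoded by Il6st. Release of CSF1 by axotomized sensory neurons is known for its effect on microglia of the spinal cord.

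Libraries were made with Smart-seq2, which amplifies full-length cDNA without molecular identifiers, and the values are expected read counts, given here as CPM (the count divided by the library's total and multiplied by 1000000). The totals of the kept single-neuron libraries ranged from 261351 to 1849130, those of the control-side pools from 563462 to 839135 and those of the SNT-side pools from 1148849 to 2003817. The 3 pooled libraries of a side were parts of 1 lysate, so their p-values measure technical spread only. The column names and an identifier line of the table pair the sides of the pooled libraries in opposite ways, and a source label describes all 6 as intact. The names were used, and under the other pairing every pooled difference would change its sign. The injury genes Atf3, Sprr1a and Gal were 6.86, 7.98 and 9.10 higher (log2) in the pooled libraries named SNT. No animal is named for the single neurons, so the neurons of 1 side and day are 1 sample, their differences are given without a test, and intervals cover counting error only. Day differs together with strain, ganglia, sequencer and read length, and with sex if the day-3 mice were all female. These cannot be told apart from time. All 106 kept cells were above 10 CPM for the neuronal genes Snap25, Tubb3 and Uchl1.

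The promoter of Csf1 is printed because this gene had the highest level per length of the 9 in the SNT-side pools, and that of Lif because this gene lay at the other end of the order. Both are the 250 bases before the annotated start in the RefSeq promoter table (GRCm38.p6), which held 6 of the 9 genes. That of Csf1 is chr3:107760470-107760719 (minus strand) and that of Lif is chr11:4257318-4257567 (plus strand). Capitals mark matches on either strand to an AP-1 motif (TGANTCA), a cAMP response element (TGACGTCA), a GC box (GGGCGG) or the canonical 10-base NF-kappaB motif.
Csf1: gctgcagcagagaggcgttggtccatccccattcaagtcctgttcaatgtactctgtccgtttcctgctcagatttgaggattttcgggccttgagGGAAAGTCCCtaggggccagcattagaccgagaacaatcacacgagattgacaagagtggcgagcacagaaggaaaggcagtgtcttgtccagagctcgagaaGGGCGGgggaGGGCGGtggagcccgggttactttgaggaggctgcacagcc
Lif: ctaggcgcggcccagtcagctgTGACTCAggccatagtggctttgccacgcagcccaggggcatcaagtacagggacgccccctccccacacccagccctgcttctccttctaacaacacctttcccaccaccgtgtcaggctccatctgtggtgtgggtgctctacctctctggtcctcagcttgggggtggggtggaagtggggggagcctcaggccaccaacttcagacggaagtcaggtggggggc

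The Csf1 window held 1 NF-kappaB match, which begins 154 bases before the start, and 2 GC boxes, which begin 51 and 41 bases before it. The Lif window held 1 AP-1 match, 228 bases before the start. Of all 32851 promoters of the table, 0.14% held this NF-kappaB motif, 32.7% a GC box, 6.75% an AP-1 motif and 1.55% a cAMP response element. Neither the Csf1 window nor the other 4 that were searched (Ccl21a, Cx3cl1, Cxcl12 and Tgfb1) held an AP-1 match. A match describes letters and is no evidence of binding.

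In the pooled libraries at day 3, Csf1, Il34, Ccl2 and Ccl7 were higher on the SNT side, and Cx3cl1, Cxcl12 and Tgfb1 did not pass the test. Of 7 genes of the 9 that reached a mean of 1 CPM, 4 were called higher and 0 lower, where a call needs a Benjamini-Hochberg adjusted p under 0.05 in edgeR and at least a 2-fold change. Of all 13509 genes tested, 8.83% were called higher (1193 genes), 961 were called lower and 15.9% were called in either direction. For the lower direction, 0 of the 7 had an unadjusted p below 0.05, and DESeq2 and limma called 0 lower too. The median log2 change was 1.78 over the 7 genes and 0.02 over all genes. Ccl2, Ccl7 and Tgfb1 passed the limit on low values only through the SNT side. Such a gene is selected for a higher SNT side, although Tgfb1 was not called, and the count is a description. All 3 SNT-side libraries lay above all 3 control-side libraries for the same 4 genes, which held for 16.8% of all genes tested.

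**Figure D1:**
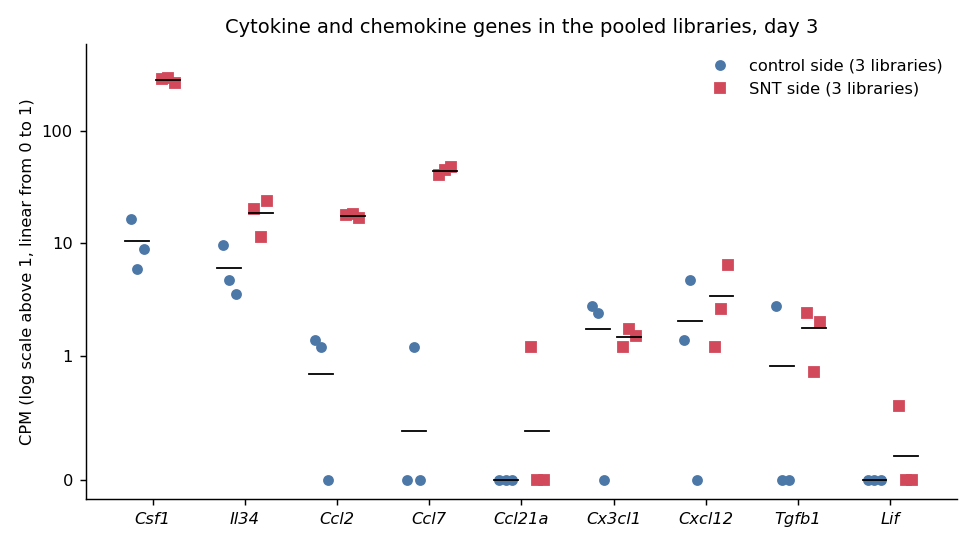
CPM of the 9 genes in each pooled library at day 3 (circles, control side; squares, SNT side; lines, means; the axis is logarithmic above 1 and linear from 0 to 1). Csf1, Il34, Ccl2 and Ccl7 do not overlap between the sides, whereas Cx3cl1, Cxcl12 and Tgfb1 overlap at or under 6.49 CPM, and Ccl21a and Lif are at 0 in 5 of 6 libraries.

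Csf1 lies on chromosome 3 (107741048 to 107760469, minus strand, GRCm38). Its pooled control-side libraries held 16.5, 5.96 and 8.87 CPM and its SNT-side libraries 295, 296 and 269 CPM. The sides were far apart, and the SNT-side libraries lay close together. The log2 change was 4.93 ± 0.25 (SE, edgeR adjusted p = 7.8e-19, higher in 3 of 3 libraries), and the ratio of summed counts per total was 27.5 (18.1 to 44.1). Il34, the second ligand of CSF1R, lies on chromosome 8 (110741829 to 110805924, minus strand). It had 9.63, 4.77 and 3.55 CPM on the control side and 20.3, 11.3 and 23.95 CPM on the SNT side. The SNT-side libraries were higher but the closest pair of libraries, 9.63 and 11.3 CPM, rests on 7 and 13 counts. The log2 change of Il34 was 1.78 ± 0.51 (SE, edgeR adjusted p = 0.0072), and without SNT library 3 it was 1.54 with an edgeR adjusted p of 0.064.

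The monocyte chemokines Ccl2 and Ccl7 neighbour each other on chromosome 11 (82035571 to 82037453 and 82045712 to 82047525, both plus strand). Ccl2 had 1, 1 and 0 counts in the control-side pools and 30, 21 and 34 counts in the SNT-side pools, or 17.9, 18.3 and 16.97 CPM. Ccl7 had 0, 1 and 0 counts on the control side and 68, 52 and 96 counts on the SNT side, or 40.7, 45.3 and 47.9 CPM. Both genes were thus almost absent from the control-side pools and even across the SNT-side pools. With so few control-side counts the ratio of summed rates was 18.8 for Ccl2 (95% interval 5.04 to 157) and 95.3 for Ccl7 (16.9 to 3783). The fitted log2 changes, which depend on the prior count, were 4.24 ± 0.73 (SE, edgeR adjusted p = 1.7e-05) and 6.42 ± 0.64 (SE, edgeR adjusted p = 1.3e-10). Ccl12, another chemokine gene of this family, was listed at 0 in all 6 pools. The Ccl2 locus is overlapped on the other strand by the gene model Gm17268 and the Il34 locus by Gm15894 and Gm15895, and since these libraries do not keep strand, such reads could not be told apart.

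The other 5 genes were at the edge of detection in the pools. Cx3cl1 (chromosome 8, 94772009 to 94782427) had 2, 2 and 0 counts on the control side and 2, 2 and 3 on the SNT side, with a log2 change of -0.16 ± 1.19 (SE, edgeR adjusted p = 0.95). Cxcl12 (chromosome 6, 117168535 to 117181367) had 1, 4 and 0 against 2, 3 and 13 counts, with a log2 change of 0.78 ± 1.0 (SE, edgeR adjusted p = 0.63). Tgfb1 (chromosome 7, 25687002 to 25705077) had 2, 0 and 0 against 4, 1 and 4 counts, with a log2 change of 1.02 ± 1.35 (SE, edgeR adjusted p = 0.64). These standard errors leave room for changes in both directions, so a difference was not detectable at this depth. Lif (chromosome 11, 4257557 to 4272514) had 0.99 counts in 1 SNT-side pool and 0 elsewhere, and Ccl21a (chromosome 4, 42772860 to 42773993) had 2 counts in 1 SNT-side pool and 0 elsewhere, so no fold is given. Of the 50-base words of the Ccl21a transcript, 71.6% also occur in 4 other genes (Ccl21b, Gm10591, Gm13304 and Gm21541), so its counts may be shared with these copies and are uncertain. Of the other 8 genes, Il34 shared 1.49% of its words with another gene and 7 shared 0%.

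Per kilobase of the longest annotated transcript, the order on the pooled SNT side was Csf1 with 68.6 ± 3.76 CPM per kb (SD, n = 3 libraries), Ccl7 with 55.7 ± 4.59, Ccl2 with 21.8 ± 0.836 and Il34 with 10.3 ± 3.62. Each of these steps was larger than the SDs on both sides of it. Tgfb1 with 0.806 ± 0.363, Cxcl12 with 0.61 ± 0.487, Ccl21a with 0.458 ± 0.793 and Cx3cl1 with 0.446 ± 0.0824 CPM per kb followed, and no neighbours among these 4 differed beyond their spread. Lif came last with 0.049 ± 0.0849 CPM per kb, from 1 count. On the pooled control side Il34 and Csf1 (2.5 ± 1.3 CPM per kb) held the first places and did not differ beyond their spread.

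The single neurons at day 3 showed Csf1 and Il34 in most SNT-side cells, and Ccl2 and Ccl7 in few. Csf1 exceeded 10 CPM in 33 of 41 neurons of the SNT side (80.5%, exact Clopper-Pearson 95% interval 65.1% to 91.2%) and 5 of 18 of the control side (27.8%, 9.69% to 53.5%). With every cell thinned to 250000 counts, which left out 0 kept cells, these were 33 of 41 and 6 of 18. The lowest, median and highest values were 0, 228 and 901 CPM on the SNT side and 0, 5.24 and 35.6 CPM on the control side. Of the SNT-side cells, 30 exceeded every control-side cell and 11 lay within the control-side range. Of the 30, the lowest had 37.1 CPM and the next 96.7 CPM, while the 11 had at most 24.3 CPM. The mean was 227 against 10.1 CPM, a log2 ratio of 4.36 on the scale of mean CPM + 1.

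**Figure D2:**
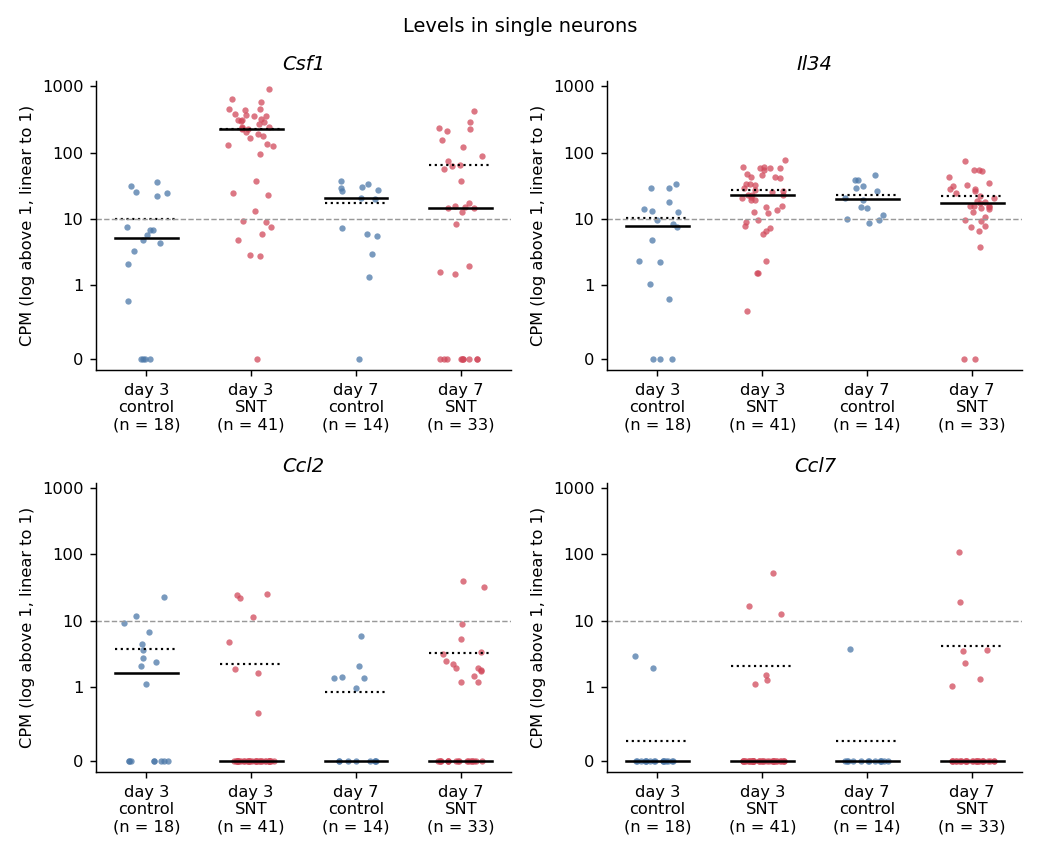
CPM of Csf1, Il34, Ccl2 and Ccl7 in each single neuron by day and side (solid line, median; dotted line, mean; dashed line, 10 CPM; the axis is logarithmic above 1). At day 3 the SNT-side cells fall into 30 above and 11 within the control-side range of Csf1, and at day 7 the SNT-side median of 14.9 CPM lies below the control-side median of 20.6 CPM while the mean lies above it.

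At day 3 Il34 exceeded 10 CPM in 31 of 41 neurons of the SNT side (75.6%, 59.7% to 87.6%) and 7 of 18 of the control side (38.9%, 17.3% to 64.3%), or 31 and 8 after thinning. The lowest, median and highest values were 0.652, 22.8 and 76.5 CPM on the SNT side and 0, 7.98 and 33.9 CPM on the control side. Unlike Csf1, most SNT-side cells stayed within the control-side range, with 12 of 41 above its highest cell. All 12 of these cells also had Csf1 above its highest control-side cell. The log2 ratio of means was 1.32.

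Ccl2 exceeded 10 CPM in 4 of 41 neurons of the SNT side (9.76%, 2.72% to 23.1%) and 2 of 18 of the control side (11.1%, 1.38% to 34.7%), or 4 and 1 after thinning, with values of 11.5, 21.9, 24.3 and 25.04 CPM against 11.7 and 22.7 CPM. The ranges of the cells with Ccl2 overlapped, and the ratio of summed rates was 0.550 (0.406 to 0.752), whereas it was 18.8 in the pools. This value rests on 1 control-side cell with 30 of the 67 counts, and without that cell the ratio was 0.911 (0.626 to 1.353). The shares also depended on the level, since 7 of 41 and 10 of 18 neurons exceeded 1 CPM (17.1% and 55.6%). Ccl7 exceeded 10 CPM in 3 of 41 neurons of the SNT side (interval 1.54% to 19.9%, and 2 neurons after thinning), at 12.9, 16.9 and 52.4 CPM, and in 0 of 18 of the control side, which by the exact interval allows a share of up to 18.5%. The ratio of summed rates for Ccl7 was 8.92 (3.394 to 33.3), and 57.5% of its 120 SNT-side counts came from 1 cell. Without that cell the ratio was 3.89 (1.43 to 14.8), and without the control-side cell with the most counts it was 17.05 (4.62 to 142), against 2 counts. Over all 41 SNT-side cells Ccl7 had 2.31 CPM of the summed counts (1.92 to 2.76) against 44.6 ± 3.67 CPM in the SNT-side pools (SD, n = 3), and Ccl2 had 2.39 CPM (1.99 to 2.85) against 17.7 ± 0.680 CPM. Csf1 had 237 CPM in the summed cells and 287 CPM in the pools, and Il34 29.4 and 18.5 CPM. The chemokines were thus lower in the single neurons than in the pools of the same day, and the source of this gap was not tested. All 4 SNT-side cells with Ccl2 above 10 CPM also had Csf1 above 10 CPM, and 2 of the 4 had Ccl7 above it.

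**Figure D3:**
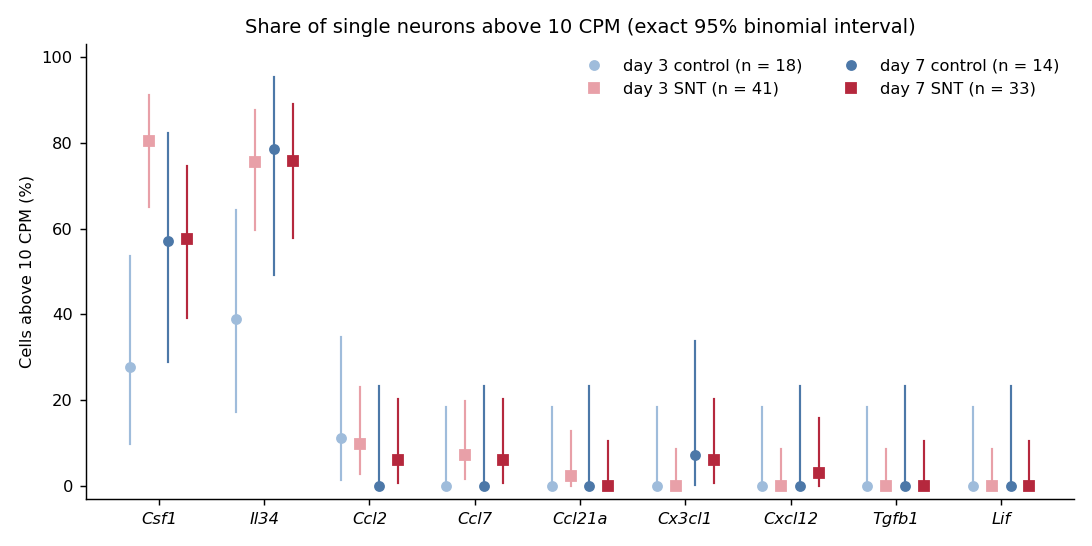
Share of single neurons above 10 CPM for each gene, by day and side (points, share in percent; lines, exact binomial 95% intervals, which cover counting error only). Csf1 and Il34 have shares of 27.8% or more, and the other 7 stay at or under 11.1%.

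Of the remaining genes at day 3, Ccl21a was at 107 CPM (128 counts) in 1 SNT-side cell and at 0 in all 18 control-side cells. That cell also had 12.2 counts of the copy Ccl21b and the highest Csf1 level, 901 CPM. It held 97.7% of the Ccl21a counts of the SNT side, and without it the log2 ratio fell from 1.88 to 0.10. Tgfb1 was at 0 in all 18 control-side cells and above 0 in 13 of 41 SNT-side cells, with 20 counts in all and at most 2.86 CPM, which is at least 1.98-fold higher than 3 counts over the control-side cells. Cx3cl1 was above 0 in 14 of 41 and 7 of 18 cells, Cxcl12 in 4 and 2, and Lif in 6 and 3, and none of these 3 exceeded 10 CPM in a kept cell of day 3. Their ratios of summed rates were 0.485 for Cx3cl1 (0.266 to 0.909), 2.68 for Cxcl12 (0.823 to 13.8) and 0.248 for Lif (0.0598 to 0.974). Without the control-side cell with the most counts, that of Cx3cl1 was 0.678 (0.344 to 1.41). For Lif it was then 0.469 (0.0912 to 3.02), from 5 and 3 counts. By a mean of at least 1 CPM over both sides, 5 of the 9 genes could be compared, and 4 (Csf1, Il34, Ccl7 and Ccl21a) were past a 2-fold ratio in the higher and 0 in the lower direction. Of 13663 such genes, 13.2% were past it in either direction (973 higher and 830 lower, the latter 6.07%). Ccl7 and Ccl21a reached the mean of 1 CPM only through the SNT side, which selects for a higher SNT side, and nothing is read from their place in this count.

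At day 7 the means and the medians of Csf1 moved in opposite directions. Csf1 exceeded 10 CPM in 19 of 33 neurons of the SNT side (57.6%, 39.2% to 74.5%) and 8 of 14 of the control side (57.1%, 28.9% to 82.3%), or 18 and 9 after thinning. The lowest, median and highest values were 0, 14.9 and 429 CPM on the SNT side and 0, 20.6 and 37.03 CPM on the control side. Of the SNT-side cells, 13 exceeded every control-side cell, and 10 of 33 had no Csf1 count against 1 of 14 on the control side. The means were 65.5 and 17.7 CPM (log2 ratio 1.83), and with medians in place of means the log2 ratio was -0.44. The log2 ratio was 2.03 in female and 1.61 in male cells, and 8 of 16 female and 5 of 17 male SNT-side cells exceeded every control-side cell of their sex. The difference between the sexes was not tested.

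Il34 at day 7 exceeded 10 CPM in 25 of 33 neurons of the SNT side (75.8%, 57.7% to 88.9%) and 11 of 14 of the control side (78.6%, 49.2% to 95.3%), or 27 and 12 after thinning. The medians were 17.4 and 20.1 CPM and the means 22.6 and 22.9 CPM, with a log2 ratio of -0.02 and a ratio of summed rates of 1.09 (0.931 to 1.28). The day-7 control side, with a lowest cell of 8.63 CPM, thus stood at the level of the SNT side, whereas the day-3 control side had a median of 7.98 CPM. Whether the changes of Csf1 and Il34 differ between the days was not tested.

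At day 7 Ccl2 exceeded 10 CPM in 2 of 33 neurons of the SNT side, at 39.4 and 31.8 CPM, and in 0 of 14 of the control side, which by the exact interval allows a share of up to 23.2%. Ccl7 was above 10 CPM in 2 of 33, at 107 and 19.2 CPM, and in 0 of 14. The cell with the most Ccl2 and the cell with the most Ccl7 were the same, and it held 34 of the 70 Ccl2 counts and 92 of the 106 Ccl7 counts of the side. The ratio of summed rates was 3.124 for Ccl2 (1.68 to 6.33) and 18.9 for Ccl7 (6.30 to 93.2, against 3 control-side counts). Without that cell the ratio was 1.68 for Ccl2 (0.854 to 3.55) and 2.61 for Ccl7 (0.729 to 14.2), and without the control-side cell with the most counts it was 5.65 for Ccl2 (2.47 to 15.9). Cx3cl1 reached 10 CPM in 2 SNT-side cells (27.3 and 11.2 CPM) and 1 control-side cell (13.3 CPM), with a ratio of 0.977 (0.524 to 1.88), which was 0.550 without the highest SNT-side cell and 1.94 without the highest control-side cell. Cxcl12 reached it in 1 SNT-side cell, at 40.6 CPM with 13 counts, and without the highest cells its log2 ratio changed from 0.83 to -0.05. Tgfb1 was at 0 in all 14 control-side cells and above 0 in 4 SNT-side cells with 1 count each, Lif was above 0 in 2 and 1 cells, and Ccl21a in 3 and 4 cells. Of the 9 genes, 6 could be compared here, and 3 of them (Csf1, Ccl2 and Ccl7) were past a 2-fold ratio in the higher and 0 in the lower direction, against 6.37% and 3.49% of 13320 genes, or 9.86% in either direction. Ccl2, Ccl7 and Cxcl12 reached the mean of 1 CPM only through the SNT side, and Cxcl12 was not past the fold. Nothing is read from their place in this count.

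Csf1 and the injury transcription factor gene Atf3 were high in the same neurons. At day 3, Csf1 was above its highest control-side cell in 30 of 41 SNT-side cells and Atf3 above its own (75.7 CPM) in 30, and these were the same 30 cells. At day 7 the 12 SNT-side cells with Atf3 above its highest control-side cell all had Csf1 above its own, and 1 further cell had Csf1 alone. That cell had Csf1 at 37.98 CPM, near the limit of 37.03 CPM. It also had 6 Ptprc counts and sums of 71.5 CPM for macrophage and 1062 CPM for neutrophil genes. The overlap with Sprr1a, a gene of regenerating axons, was 29 of 30 cells at day 3 and 12 of 13 at day 7. For Gal, the neuropeptide galanin, 22 of 30 Csf1-high cells at day 3 and 6 of 13 at day 7 also had it above its control-side range. Spearman's correlation coefficient between Csf1 and Atf3 over SNT-side cells was 0.71 at day 3 (41 cells) and 0.61 at day 7 (33 cells), and between Csf1 and Jun 0.68 at both days. The coefficient between Csf1 and the library total was 0.16 and 0.22. These values share library and depth within a cell and are descriptions. Il34 followed Atf3 less closely by its values, with a coefficient of 0.40 and 0.47, and its coefficient with Csf1 was 0.33 and 0.36.

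**Figure D4:**
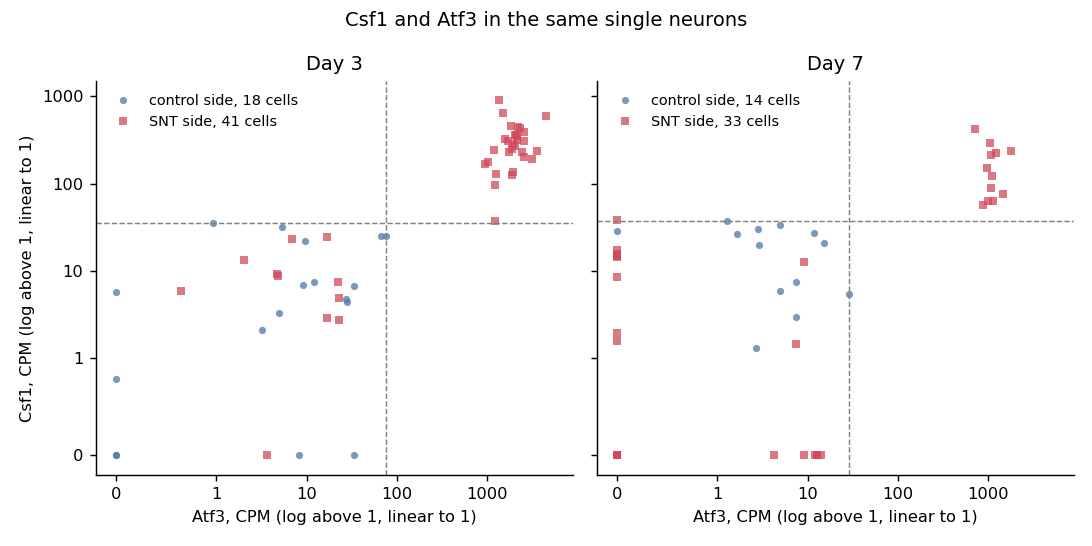
Csf1 against Atf3 (both in CPM, logarithmic above 1) in each single neuron at day 3 and day 7 (circles, control side; squares, SNT side; dashed lines, highest control-side cell). The upper right field holds 30 of 41 SNT-side cells at day 3 and 12 of 33 at day 7, and the upper left field holds 0 and 1.

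The 3 genes most like Csf1 over the 41 SNT-side cells at day 3, among 9973 genes ranked by Spearman's correlation coefficient, were the growth factor gene Fgf3 (0.87), the transcription factor gene Sox11 (0.83) and the kinase gene Mapk6 (0.83). At day 7 their coefficients with Csf1 were 0.60, 0.66 and 0.64. For Il34 they were Atp6v1h (0.72), a subunit of the vacuolar proton pump, Tmbim4 (0.69) and Azin1 (0.68), an inhibitor of antizyme, with 0.30, 0.29 and 0.51 at day 7.

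Among SNT-side cells, Csf1 was found with markers of several neuron classes. At day 3, 24 of 32 cells above 10 CPM for the receptor gene Ntrk2, 25 of 32 for the peptide gene Calca, 20 of 27 for the ATP receptor gene P2rx3, 6 of 10 for Mrgprd, 9 of 9 for Pvalb and 4 of 4 for Th were above 10 CPM for Csf1, against 33 of all 41. At day 7 the shares were 16 of 26 for Ntrk2, 8 of 13 for Calca, 7 of 10 for P2rx3 and 7 of 17 for Pvalb, against 19 of 33. Spearman's correlation coefficient between Csf1 and the neurofilament gene Nefh was -0.21 at day 3 and -0.64 at day 7, and between Csf1 and Ret 0.11 and 0.63. These were the largest in size among the class markers at day 7. At day 3 the coefficients of the class markers ranged from -0.31 (Calca) to 0.23 (P2rx3). On the control side they were 0.59 and -0.06 for Nefh and -0.56 and -0.64 for Ret at day 3 and day 7. The classes overlap within cells and were not tested against each other.

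The receptor genes of these ligands were mixed. Of 22 receptor genes, 15 were tested in the pools, and 6 were called higher and 1 lower by edgeR, against 15.9% of all genes in either direction. By an unadjusted edgeR p under 0.05 there were 12, of which 5 were lower. The share of all genes under that limit was not taken, so nothing is read from these 12. DESeq2 called 4 higher and 1 lower, and limma 5 and 1. Their median log2 change was 1.16. Sdc1 and Ptprz1, which encode binding partners of IL-34, moved in opposite directions in the pools, with a log2 change of 2.11 ± 0.18 for Sdc1 (SE, edgeR adjusted p = 2.1e-12) and -1.19 ± 0.20 for Ptprz1 (SE, edgeR adjusted p = 1.6e-05). Sdc1 had 64.6, 76.3 and 76.3 CPM in the control-side pools and 240, 291 and 308 CPM in the SNT-side pools. In single neurons the log2 ratio of Sdc1 was 3.03 at day 3 and 3.59 at day 7, and that of Ptprz1 was 0.32 and -0.61. Ackr1, which encodes a scavenging receptor of many chemokines, had a log2 change of 1.71 ± 0.25 (SE, edgeR adjusted p = 7.1e-07), and log2 ratios of 0.53 and 0.31 in single neurons at day 3 and day 7. Ptprz1 and Ackr1 are outside the rule for named genes and were named after their values were seen.

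**Figure D5:**
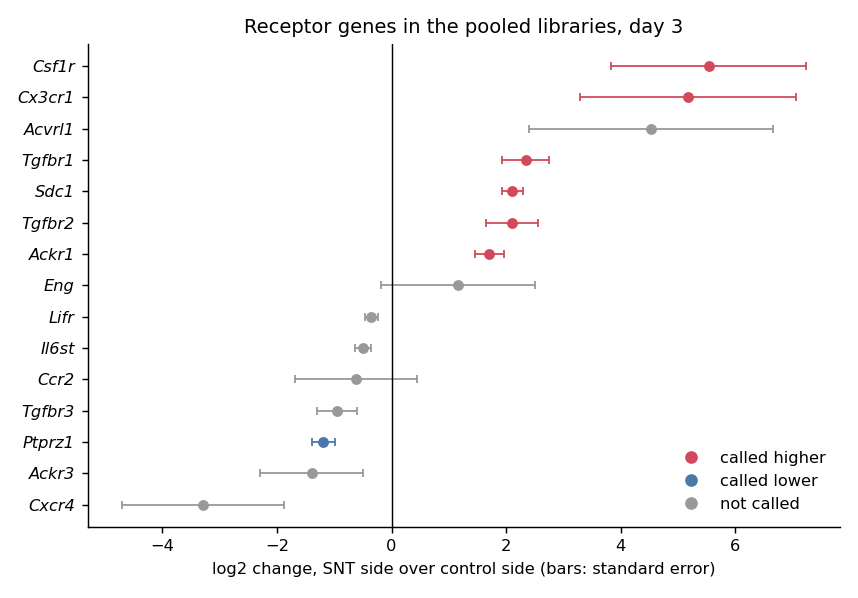
Fitted log2 change of the 15 tested receptor genes in the pooled libraries at day 3 (points, SNT side over control side; bars, standard error). Of the 15, 6 are called higher and Ptprz1 is called lower, while Lifr and Il6st lie at -0.35 and -0.50 with small errors and stay under the fold limit.

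Of 5 TGF-beta receptor genes in the list, Tgfbr1 and Tgfbr2 were called higher in the pools, and Tgfbr3, Acvrl1 and Eng were not called. Tgfbr3, named with the other 2 after the values were seen, had 32.9 ± 6.68 CPM on the control side and 15.4 ± 3.83 CPM on the SNT side (SD, n = 3), with every SNT-side library lower, a log2 change of -0.95 and an edgeR adjusted p of 0.041. Tgfbr1 had 8.25, 11.9 and 5.32 CPM on the control side and 62.2, 26.1 and 31.9 CPM on the SNT side, a log2 change of 2.34 ± 0.41 (SE, edgeR adjusted p = 2.1e-05). Tgfbr2 had 5.50, 5.96 and 8.87 CPM against 19.1, 29.6 and 28.95 CPM, a log2 change of 2.10 ± 0.45 (SE, edgeR adjusted p = 0.00036). Tgfbr1 and Tgfbr2 were higher in 3 of 3 libraries. In the cells at day 3 Tgfbr1 was above 10 CPM in 31 of 41 SNT-side and 7 of 18 control-side cells and Tgfbr2 in 12 and 2. At day 7 the values were 23 of 33 and 10 of 14 for Tgfbr1 and 23 of 33 and 11 of 14 for Tgfbr2.

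Lifr and Il6st, the receptor genes for LIF, were above 10 CPM in all 106 kept cells. In the pools their log2 changes were -0.35 ± 0.12 for Lifr and -0.50 ± 0.14 for Il6st (SE), under the fold limit, with edgeR adjusted p of 0.025 and 0.0081. Lifr had 1371, 1164 and 1329 CPM in the control-side pools and 918, 951 and 853 CPM in the SNT-side pools, so the sides did not overlap, as for 21.3% of all genes in this direction. In cells its log2 ratio was -0.28 at day 3 and 0.45 at day 7.

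Csf1r and Cx3cr1, receptor genes best known from macrophages and microglia, were low but present on the SNT side. Csf1r had 0 counts in all 3 control-side pools and 12, 4 and 7 counts in the SNT-side pools, at least 3.384-fold higher than 3 counts over the control-side pools (edgeR adjusted p = 0.013). Its call was lost with DESeq2 (adjusted p = 0.05, above the limit before rounding) and without SNT library 1 (edgeR adjusted p = 0.072). Both Csf1r and Cx3cr1 passed the limit on low values only through the SNT side, which selects for a higher SNT side. Their place among the 6 receptor genes called higher is thus a description. Cx3cr1 had 0.19, 0 and 0 against 1.35, 5.02 and 11.8 counts (edgeR adjusted p = 0.04), and its call was lost in 7 of 12 alternatives, with an adjusted p of 0.13 by DESeq2. In cells, Csf1r was above 10 CPM in 10 of 41 SNT-side and 1 of 18 control-side cells at day 3 and in 5 of 33 and 0 of 14 at day 7, and Cx3cr1 in 8 and 0 at day 3 and 1 and 0 at day 7. Ccr2 stayed at or under 5.79 CPM in all cells of day 3, with a pooled log2 change of -0.62 ± 1.07 (SE, edgeR adjusted p = 0.73). Cxcr4 had 2, 3 and 2 counts in the control-side pools and 1, 0 and 0 in the SNT-side pools and did not pass the test (edgeR adjusted p = 0.087), nor did Ackr3, the other receptor of CXCL12 (edgeR adjusted p = 0.28).

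Markers of some other cells differed between the pooled sides. The 13 macrophage and microglia genes summed to a median of 1.375 CPM in the control-side pools and 6.96 to 13.97 CPM in the SNT-side pools. The highest control-side pool lay above the lowest SNT-side pool. Of the 2 tested, 1 was called higher, Cd14, named after its value was seen (edgeR adjusted p = 0.036, lost in 7 of 13 alternatives). Over all genes, 8.83% were called higher. Cd14 (means of 0.856 CPM on the control side and 6.20 CPM on the SNT side) and Lyz2 passed the limit on low values only through the SNT side. The call of Cd14 is thus a description. Of the 13, Ptprc, Itgam, Tyrobp and C1qc were at 0 in all 6 pools, and Cd68, Emr1, Fcer1g and C1qa were at 0 on the control side with means of 0.290, 0.499, 0.532 and 0.166 CPM on the SNT side. Lyz2, the other one tested, had means of 0.397 and 1.98 CPM with no overlap between the sides and was not called (edgeR adjusted p = 0.35), and Aif1, C1qb and Mrc1 had lower means on the SNT side. The neutrophil list summed to at most 2.61 CPM in any pool. In kept single neurons its sum had a median of 0.643 CPM on the SNT side at day 3 and 0 at day 7. The highest SNT-side cells reached 4191 and 1062 CPM, while control-side cells stayed at or under 0.982 CPM. The cell with 4191 CPM also had a macrophage sum of 382 CPM and 43.96 Ptprc counts. With Csf1 at 361 CPM, it is among the 30 day-3 cells above the control-side range of Csf1. The sum of 10 satellite glia and Schwann cell genes ranged from 12730 to 15320 CPM in control-side pools and from 5873 to 6692 CPM in SNT-side pools, and all 10 were tested, with 6 called lower and 1 higher, against 961 of 13509 genes lower and 15.9% in either direction. In single neurons, the medians of that sum were 3778 CPM (control) and 3755 CPM (SNT) at day 3, and 4666 and 761 CPM at day 7. Over the 16 kept cells with Csf1r above 10 CPM the macrophage genes summed to 0 to 247 CPM, and 3 of the 16 had a Ptprc count. The cells with Ccl2 or Ccl7 above 10 CPM had macrophage sums of at most 10.6 CPM. Their sums of 10 vessel and connective tissue genes ranged from 14.4 to 361 CPM. The medians of that sum were 48.4 CPM over the SNT-side cells of day 3 and 47.4 CPM at day 7. The highest sum of each SNT side was in such a cell. It was 288 CPM at day 3, in the cell with Ccl7 at 16.9 CPM, and 361 CPM at day 7, in the cell with the most Ccl2 and Ccl7. The part of other cells in these results was not tested. In pools, fewer neurons with a transcript and less RNA per neuron cannot be told apart.

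Of 34 other chemokine genes in the tables, 7 were tested in the pools and 1 was called higher, Cxcl13, which attracts B cells, against 8.83% of all genes, so this count is near the background. Cxcl13 had 0 counts in the control-side pools and 12, 9 and 16 in the SNT-side pools, at least 5.44-fold higher than 3 counts over the control-side pools (edgeR adjusted p = 0.0013). It passed the limit on low values only through the SNT side, which selects for a higher SNT side. In single neurons it exceeded 10 CPM in 1 of 41 of the SNT side at day 3 and at 0 in all 47 cells of day 7. Of 49 other cytokine genes, 12 were tested and 0 were called by edgeR, DESeq2 or limma. An unadjusted edgeR p below 0.05 was found for 3, of which 1 was lower, and the share of all genes was not taken. Their median log2 change was 0.41, and that of the chemokines 0.29.

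Of 17 genes for the release and activation of these ligands, 10 were tested, 1 was called higher and 2 lower, against 15.9% of all genes in either direction, with a median log2 change of -0.67. Itgb6, a subunit of an integrin that activates latent TGF-beta, had 3, 0 and 1 counts on the control side and 22, 9 and 25 on the SNT side, with a log2 change of 2.67 ± 0.76 (SE, edgeR adjusted p = 0.0073). Itgb8, a subunit of another such integrin, fell by 1.14 on the log2 scale (SE 0.28, edgeR adjusted p = 0.0021), and without SNT library 1 it was no longer past the fold limit. Adam17, the sheddase that frees membrane-bound CSF1 and CX3CL1, had 40.2, 57.8 and 36.6 CPM on the control side and 16.4, 16.5 and 15.1 CPM on the SNT side and fell by 1.35 on the log2 scale (SE 0.32, edgeR adjusted p = 0.0011). In single neurons the log2 ratios at day 3 were 0.53 for Itgb6, 0.38 for Itgb8 and -0.25 for Adam17, and at day 7 they were -0.79, -0.59 and -0.65.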

How the data were processed

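Values are expected counts per gene, which the authors made with CASAVA 1.8.2, Bowtie2 and RSEM on RefSeq exons of mm9, with ribosomal RNA removed, and deposited in tables named TPM. They were read as counts because library totals ranged from 223967 to 2003817 and 60.7% to 93.6% of values above 0 were whole within 1e-09. Counts were scaled to CPM. Pooled counts were rounded and tested with edgeR 4.0.16 (quasi-likelihood, TMM, mean of at least 1 CPM, prior count 0.125) in R 4.3.3, with DESeq2 1.42.0 and limma 3.58.1 as alternatives, after a test on simulated data. Single neurons were summarised in Python 3.11.15 with scipy 1.17.1 (exact Clopper-Pearson and Poisson intervals at 95%, floor of 3 counts, log2 ratios of mean CPM + 1), and shares of cells were recomputed at levels of 1 and 50 CPM. Reads without molecular identifiers are not independent molecules. The study's text gives 50 neurons per pool and the labels 106. Gene positions are from GENCODE M21 (GRCm38), since the tables hold none.

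The 9 genes and all lists were chosen with earlier results of these data known. Named beyond the 9 were up to 5 genes per list with the largest change among those called in the pools, the main receptors, and the 3 genes most alike by Spearman's correlation coefficient among genes above 10 CPM in at least 10 SNT-side cells of day 3. Ccl28 and Ly6g were not matched in the tables. The replicate numbers of the pools did not pair the sides, with correlations of deviations of 0.059, -0.016 and -0.007 for equal numbers.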

Additional observations from a re-analysis of the deposited data

Results flagged for a closer look

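The 11 cells of day 3 that the authors removed as outliers (7 SNT-side, 4 control-side) entered no comparison above. Of the 9 genes, 5 were higher in a removed SNT-side cell than in any removed control-side cell, with over 3 counts in the highest cell. The highest of 7 cells tends to lie above the highest of 4 without any difference between the sides. Nothing is read from this count. The highest values in the removed SNT-side cells were 134.4 CPM for Csf1, 94.96 CPM for Il34, 33.7 CPM for Cx3cl1, 12.45 CPM for Cxcl12 and 11.99 CPM for Lif. In the removed control-side cells the highest values were 53.6 CPM for Csf1, 33.6 CPM for Il34 and 4.47 CPM for Cx3cl1, and Cxcl12 and Lif were at 0. Cx3cl1 was above 10 CPM in 3 of the 7 removed SNT-side cells and in 0 of the 41 kept ones. The removed libraries held 223967 to 666521 counts, and the part of this depth in these values was not tested.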

How the results depend on the processing

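In the pools, 4 genes were called higher under each alternative, except that 3 were with a limit of 10 CPM, where Ccl2 was not tested, and without SNT library 3, where Il34 was not called (log2 change 1.54, edgeR adjusted p = 0.064), and 0 were called lower in all. Leaving out 1 library gave 3 to 4 of the genes called higher and 0 lower, and 1063 to 1184 genes of the whole table higher and 818 to 964 lower. With a replicate block the 4 calls held (1136 genes higher and 872 lower over the table). DESeq2 called 933 and 782 genes. Scaling by library size alone moved the median of all genes from 0.02 to -0.14 and gave 978 genes higher and 1265 lower, against 1193 and 961, and Csf1 at 4.78, Il34 at 1.62, Ccl2 at 4.09 and Ccl7 at 6.28.

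In single neurons the direction of Csf1 at day 7 depended on the summary, since its log2 ratio was -0.44 with medians. With medians, 2 of the 9 genes were past the fold in the higher and 1 (Ccl2) in the lower direction at day 3, and 0 in the higher direction at day 7. Leaving out highest cells was chosen after seeing the data, and without the highest cell of each side 2 were higher at day 3. Of 36 shares of cells, 18 moved with a level of 1 CPM and 13 with 50 CPM in place of 10 CPM. At 1 CPM Csf1 at day 7 stood at 69.7% (SNT) and 92.9% (control), and at 50 CPM at 36.4% and 0%. With the removed cells included, the day-3 log2 ratio of Csf1 was 3.75 and that of Cx3cl1 changed from -0.74 to 0.29. The causes were not tested.

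Most genes of this list rest on few counts. With 0 cells above 10 CPM in a group of 14, a share of up to 23.2% is allowed by the exact interval, and the pools are technical parts of 1 lysate per side, so differences between animals are not covered.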
